A study of Mus musculus with 21 samples.

Results

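The regions described here are 684 binding sites of Fbxl19 in mouse embryonic stem (ES) cells at which Rnf20 was also found. They were selected on peak positions in 3 lists: each is a peak of the OE-high clone, in which tagged Fbxl19 was overexpressed over 5-fold, and shared at least 1 bp with both a peak of the OE-low clone, in which Fbxl19 was kept below the endogenous level, and a peak of Rnf20. They make up 5.00% of the 13669 OE-high Fbxl19 peaks. The other OE-high peaks fall into 2382 with an Rnf20 peak and no OE-low peak, 1077 with an OE-low peak and no Rnf20 peak, and 9526 with neither.

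All samples came from J1 mouse ES cells, a pluripotent line kept in medium with leukemia inhibitory factor, profiled by chromatin immunoprecipitation and sequencing (ChIP-seq). H2Bub1, histone H2B carrying a single ubiquitin, was precipitated with an antibody from differentiated cells with Fbxl19 knocked down (2 samples), differentiated cells (2 samples), OE-high ES cells (3 samples), ES cells with Fbxl19 knocked down (2 samples) and ES cells (3 samples). The labels give 4 days for both differentiated states and do not say how the knockdown was made, and no measure of Fbxl19 in those cells was used here. Fbxl19 carrying a flag-biotin tag was pulled down with streptavidin beads from the OE-high clone (2 samples) and from the OE-low clone (2 samples, in cells with the biotin ligase BirA), and Rnf20 from a single sample of BirA cells. Each Fbxl19 map therefore rests on a tagged clone in ES cells, and no Fbxl19 or Rnf20 map of the knockdown or differentiated states and no streptavidin list from BirA cells alone was used here. The 4 input samples had no list here. The study's stated subject is recruitment of Rnf20 by Fbxl19 at CpG islands and its effect on H2B ubiquitination.

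Fbxl19 is an F-box protein whose CXXC zinc finger binds DNA with unmethylated CpG, the kind of sequence that CpG islands at gene promoters hold. Rnf20 is the E3 ligase that, with its partner Rnf40, attaches ubiquitin to H2B. H2Bub1 follows transcribing RNA polymerase II and is known to spread over the bodies of active genes, where it helps nucleosomes to be opened and rebuilt and favours methylation of H3K4 and H3K79.

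The data are 8 lists of peaks or domains on the mm9 build, all but that of Rnf20 named as combined over replicates. No value per replicate was analysed and depth per sample is unknown, so no p-value is given. Intervals are exact Clopper-Pearson 95% intervals, or Newcombe 95% intervals for differences between shares, and take in the counting of peaks alone, with no spread between replicates. The H2Bub1 lists differ in extent, from 1090 domains over 15.6 Mb in the differentiated knockdown and 5125 over 156 Mb in differentiated cells to 7216 over 246 Mb in OE-high cells, 1813 over 41.9 Mb in knockdown ES cells and 2937 over 57.4 Mb in ES cells. A share of sites in domains follows that extent, and each share is therefore set beside that of all OE-high Fbxl19 peaks in the same list.

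The distances between the peaks of the 3 pulldowns follow in part from the overlap that chose the sites, and are given as a description. The OE-low summit lay within 50 bp of the OE-high summit at 443 of the 684 sites (64.8%) and within 200 bp at 616 (90.1%), with a median distance of 33 bp. The midpoint of the Rnf20 peak lay at a median of 82 bp from the OE-high summit, and within 200 bp at 518 sites (75.7%). At the OE-high peaks with Rnf20 alone this median was 88 bp. The overlap threshold mattered for few sites. A single site had under 50 bp of overlap with either list, at chr19:42396961-42397404, which shared 22 bp with its Rnf20 peak, and the next smallest overlap was 119 bp, at chr18:82981713-82982129. Just outside the rule, chr11:116942948-116943446 and chr6:128710029-128710501 met an OE-low peak and missed an Rnf20 peak by 64 and 87 bp.

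The values that belong to the lists the sites were chosen by are given as a description. The deposited OE-high score, whose formula the sources used here do not give, ran from 2.22 to 47.7 at the shared sites with a median of 15.3, against a median of 10.7 over all OE-high peaks. Of the shared sites, 470 (68.7%) lay in the highest of 4 score classes of equal size. Peak width had a median of 824.5 bp at the shared sites, 815.5 bp at peaks with Rnf20 alone, 535 bp at peaks of both clones without Rnf20 and 625 bp over all OE-high peaks. The deposited Rnf20 score had a median of 100.8 at the shared sites, against 75.2 at Rnf20 peaks that met an OE-high peak alone and 66.5 over all 8606 Rnf20 peaks.

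The shared sites lay in H2Bub1 domains more often than OE-high Fbxl19 peaks in general, in each of the 5 lists. In differentiated knockdown cells 111 of the 684 sites (16.2%, interval 13.5 to 19.2) lay in a domain, against a background of 7.21% over all OE-high peaks. Differentiated cells gave 344 sites (50.3%, interval 46.5 to 54.1) against 37.4%, and OE-high ES cells gave 483 sites (70.6%, interval 67.04 to 74.0) against 53.9%. The OE-high list therefore held the most sites as deposited, and it is also the longest. In knockdown ES cells 210 sites (30.7%, interval 27.3 to 34.3) lay in a domain against 14.5%, and in ES cells 281 (41.1%, interval 37.4 to 44.9) against 21.2%.

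The excess over the other 12985 OE-high peaks was 21.0 percentage points in ES cells (interval 17.3 to 24.8), 17.6 in OE-high cells (14.0 to 21.0), 17.1 in knockdown ES cells (13.7 to 20.7), 13.6 in differentiated cells (9.74 to 17.4) and 9.497 in the differentiated knockdown (6.89 to 12.5). With the other peaks weighted to the OE-high score classes of the shared sites, it was 18.6 points in ES cells and between 8.66 and 15.96 in the other lists. The share was higher at the shared sites than at other peaks on 19 of 19 autosomes in ES cells, on 18 in the knockdown ES and OE-high lists and on 17 in both differentiated lists. When each H2Bub1 list was limited to its 1090 domains of highest score, the excess was 15.7 points in ES cells and 8.15 in OE-high cells. The order of the lists at the shared sites changed with lists of the same size. There 17.5% of the shared sites lay in OE-high domains, against 23.2% in ES domains. For the shared sites, the higher OE-high share thus did not hold in lists cut to the same number of domains by score. The formula of that score is unknown, and the extent of the cut lists was not compared. With domains of 2 kb or more the OE-high share stayed higher, at 69.9% against 39.9% in ES cells. The other OE-high peaks kept the order at the same list size, with 9.395% in OE-high and 7.501% in ES domains.

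**Figure D1:**
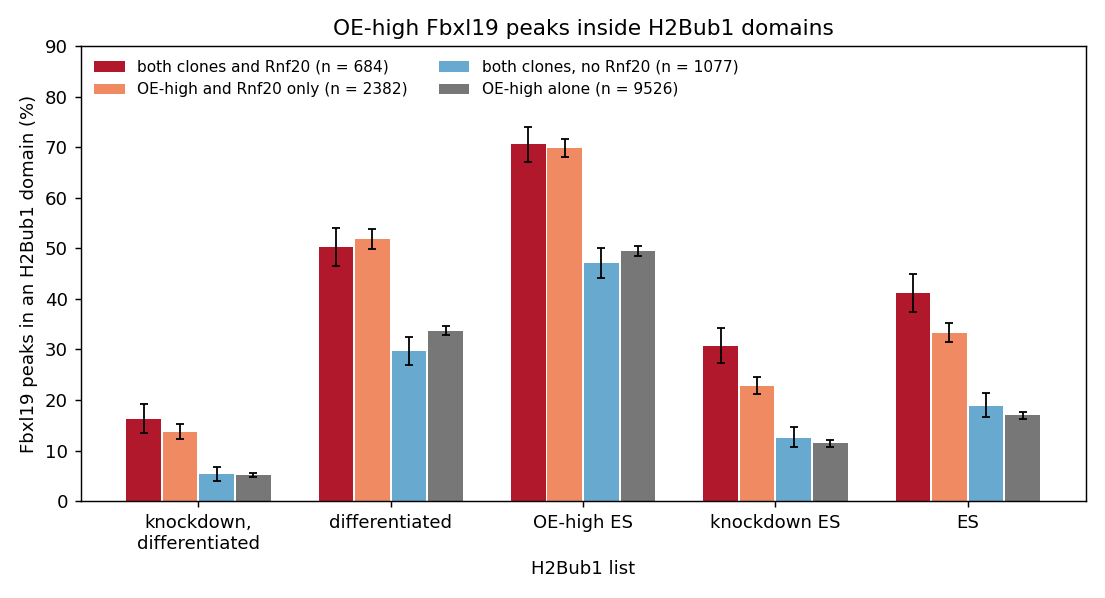
Share of OE-high Fbxl19 peaks inside an H2Bub1 domain (vertical axis, percent) in each of the 5 H2Bub1 lists (horizontal axis), for the 4 classes of peaks by overlap with OE-low Fbxl19 and Rnf20 peaks. Bars are shares of peaks with exact 95% intervals for counting error. In each list the 2 classes with Rnf20 stand above the 2 classes without it, as in ES cells with 41.1% and 33.3% against 18.8% and 16.9%. Peaks with Rnf20 were also wider, and the shares are not weighted by width.

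Among OE-high peaks, the share in domains differed most between those with and without Rnf20, and less between those with and without an OE-low peak. The peaks with Rnf20 were also wider, with medians of 824.5 bp with and 815.5 bp without an OE-low peak. Those without Rnf20 had 535 and 578.5 bp. The part of peak width in this difference was not tested. In ES domains lay 41.1% of the shared sites, 33.3% of the peaks with Rnf20 alone (interval 31.4 to 35.2), 18.8% of the peaks of both clones without Rnf20 (interval 16.6 to 21.3) and 16.9% of the OE-high peaks alone (interval 16.2 to 17.7). The shared sites exceeded peaks of both clones without Rnf20 by 22.2 points (interval 17.9 to 26.6) and peaks with Rnf20 alone by 7.79 points (interval 3.69 to 11.96). In knockdown ES cells these differences were 18.2 (interval 14.2 to 22.2) and 7.86 points (interval 4.10 to 11.8). Before weighting by Rnf20 score, an OE-low peak in addition to Rnf20 thus went with a slightly higher share in both of these ES lists.

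That second difference was not seen in the other 3 lists. The shared sites minus peaks with Rnf20 alone gave 2.50 points in the differentiated knockdown (interval -0.449 to 5.73), -1.55 in differentiated cells (interval -5.80 to 2.69) and 0.757 in OE-high cells (interval -3.20 to 4.54). Each of these intervals includes 0. The peaks with Rnf20 alone also had lower Rnf20 scores. Weighted to the Rnf20 score classes of the shared sites, the difference was 3.53 points in ES cells, 4.52 in knockdown ES cells, -1.46 in OE-high cells, -4.15 in differentiated cells and -1.12 in their knockdown. No interval was computed for these weighted differences. Within the highest of these classes the shared sites still had the higher median Rnf20 score, 215.5 against 157.65, so the weighting is incomplete.

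Within the 684 sites, those with higher Rnf20 scores lay in ES, knockdown ES and differentiated knockdown domains more often. Split into 4 classes of equal size by Rnf20 score, from low to high, 32.7%, 36.3%, 41.5% and 53.8% lay in ES domains. The knockdown ES list gave 21.6%, 29.2%, 31.6% and 40.4%, and the differentiated knockdown list 8.19%, 14.6%, 18.1% and 24.0%. In these lists the intervals of the lowest and highest classes do not overlap, for example 25.8 to 40.3 and 46.0 to 61.4 in ES cells. In OE-high cells the classes had 69.0%, 73.1%, 71.9% and 68.4%, and in differentiated cells 48.5%, 50.9%, 53.8% and 48.0%, so that no order by Rnf20 score was seen in either.

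The highest Rnf20 class holds many neighbouring sites on chromosome 13, described below. Without the 74 sites that lie in groups of 4 or more, the shares over the Rnf20 classes were 34.6%, 34.2%, 42.8% and 47.7% in ES cells, 68.6%, 72.4%, 73.7% and 79.1% in OE-high cells and 50.3%, 48.0%, 56.6% and 60.8% in differentiated cells. The highest class stood above the lowest in these 3 lists, with intervals that overlap. In knockdown ES cells the lowest and highest classes had 23.5% (interval 17.1 to 31.1) and 37.3% (interval 29.6 to 45.4), which also overlap without the groups. In the differentiated knockdown they had 9.15% (interval 5.09 to 14.9) and 21.6% (interval 15.3 to 28.9), which do not. The highest class thus stood above the lowest in every list without the groups. No interval for these differences was computed, so the overlap does not set the other lists apart from the differentiated knockdown. By OE-high score, the classes of the 684 sites had 42.1%, 43.3%, 34.5% and 44.4% in ES domains, with no order. By OE-low score they had 53.8%, 31.0%, 36.3% and 43.3%, the lowest class holding the most. Wider OE-high peaks lay in ES domains more often, with 32.2%, 35.7%, 43.9% and 52.6% from the narrowest to the widest class, and a wider peak also has more bases with which to touch a domain.

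**Figure D2:**
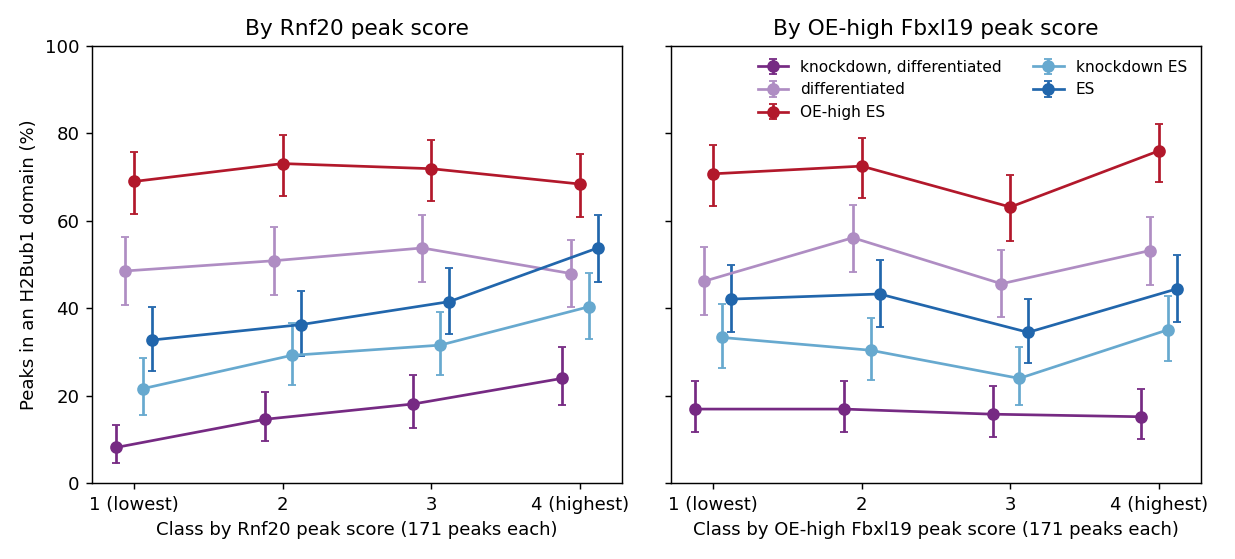
Share of the 684 shared sites in an H2Bub1 domain (vertical axis, percent) by class of Rnf20 peak score (left) and of OE-high Fbxl19 peak score (right), 4 classes of equal size, with 1 line for each H2Bub1 list and exact 95% intervals for counting error. The ES line reaches 53.8% at the highest Rnf20 scores from 32.7% at the lowest, while by OE-high score it lies between 34.5% and 44.4%.

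The comparison of knockdown with ES cells asks whether sites in a domain of the ES list also lie in one of the knockdown list. No H2Bub1 signal was compared, so a site outside the listed domains need not lack H2Bub1. Knockdown ES cells had 210 of the sites in a domain, against 281 in ES cells, and with lists of the same size 151 against 159. The other OE-high peaks had 13.6% in knockdown ES and 20.1% in ES domains as deposited. At the same list size they had 7.917% and 7.501%, so that a lower share in the knockdown was not seen at them. Of the 281 in an ES domain, 187 (66.5%, interval 60.7 to 72.0) were also in a knockdown domain and 94 were not, beside a kept share of 57.5% over all OE-high peaks in ES domains. Of the 403 sites outside ES domains 23 (5.71%, interval 3.65 to 8.44) were in a knockdown domain, against a background of 2.92%. The kept share was 10.1 points higher at the shared sites than at the other OE-high peaks in ES domains (interval 4.06 to 15.7). It was 10.3 points higher without chromosome 1, where the share of the sites in ES and in knockdown domains was highest among autosomes, at 74.5% each. With lists of the same size the difference was 2.40 points (interval -5.80 to 9.91), so that it was not detectable there. As deposited, the peaks with Rnf20 alone had a kept share of 60.5% (interval 57.0 to 64.0), which overlaps that of the shared sites.

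The ES domains at the sites were long, with a median of 17600 bp in 245 domains, against 10600 bp in domains that held other OE-high peaks alone. Longer ES domains were kept more often, and the shared sites stood above the others within each length class. In ES domains of 20 kb or more 73.5% of the shared sites were kept (108 of 147) against 62.1% of the others, in those of 5 to 20 kb 63.9% (53 of 83) against 55.2%, and under 5 kb 51.0% (26 of 51) against 41.5%. The intervals of the first pair do not overlap, 65.6 to 80.4 against 59.4 to 64.7, while those of the other pairs do. The 187 sites in both an ES and a knockdown ES domain and the 94 in an ES and no knockdown ES domain had median Rnf20 scores of 120.03 and 107.4. Their median OE-high scores were 15.2 and 14.9. Where a site lay in both lists, the domain was of similar length: over 163 pairs of domains the median was 19400 bp in the knockdown and 21400 bp in ES cells, the median ratio was 1.01, and 85 (52.1%) were longer in the knockdown. The other OE-high peaks also had a median ratio of 1.01, and 525 of 1008 (52.1%) were longer.

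OE-high ES cells are the clone from which the sites were mapped, and their list as deposited held most of the sites in ES domains and many others. Of the 281 sites in ES domains, 251 (89.3%, interval 85.1 to 92.7) lay in an OE-high domain, near the 91.4% of all OE-high peaks. Of the 403 sites outside ES domains, 232 (57.6%, interval 52.6 to 62.4) lay in one, against a background of 43.8%. The difference from the other OE-high peaks was 14.3 points (interval 9.29 to 19.1) for the sites outside ES domains. With lists of the same size 61 of 159 sites in ES domains (38.4%) lay in an OE-high domain, so that most did not, against 43.0% of the other peaks. In those lists 59 of the 525 sites outside ES domains (11.2%) lay in an OE-high domain, 4.57 points above the other peaks (interval 2.10 to 7.59). These 525 sites include some in deposited ES domains that fell outside the cut list. The higher share at the sites outside ES domains thus held with lists of equal size, over this larger set of sites and at a lower level. It was not particular to the shared sites: as deposited, the peaks with Rnf20 alone had 59.0% (interval 56.5 to 61.4).

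Domains were longer in OE-high than in ES cells, and the ratio was smaller at the shared sites than elsewhere. Over 233 pairs of domains at sites in both lists, OE-high domains had a median of 28400 bp and ES domains one of 18000 bp. The ratio of the pair had a median of 1.15, and 141 (60.5%, interval 53.9 to 66.8) were longer in OE-high. At the other OE-high peaks the median ratio was 1.71, and 72.9% of 1786 pairs (interval 70.8 to 74.95) were longer. The ES domains were already longer at the shared sites, with a median of 18000 bp over these pairs against 12800 bp, and the part of that starting length in the smaller ratio was not tested.

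In cells differentiated for 4 days, a comparison with the same ES list, 344 sites lay in a domain against 281 in ES cells as deposited. With lists of the same size the order turned, with 112 sites in differentiated against 159 in ES domains. It did not turn at the other OE-high peaks, with 8.002% in differentiated and 7.501% in ES domains. Of the 159 sites in ES domains 32.7% were in a differentiated domain, against 36.9% of the other peaks. Of the 525 sites outside ES domains in the lists of the same size 11.4% were, against 5.66% of the other peaks. In the lists as deposited, 200 of the 281 sites in ES domains (71.2%, interval 65.5 to 76.4) were in a differentiated domain, below the background of 77.3%, and of the 403 outside ES domains 144 (35.7%, interval 31.0 to 40.6) were, above the background of 26.7%. The first share minus that of the other OE-high peaks was -6.83 points (interval -12.6 to -1.59), and the second gave 9.40 points (interval 4.80 to 14.3). The first of these rests on the groups of neighbouring sites: without them 78.2% of the sites in ES domains were in a differentiated domain, against 78.4% of the others. The second was not particular to the shared sites. Of the peaks with Rnf20 alone outside ES domains, 38.9% (interval 36.5 to 41.3) lay in a differentiated domain, and of those in ES domains 77.8%. Over 192 pairs of domains at sites in both lists the median length was 20800 bp in differentiated and 17000 bp in ES cells, the median ratio was 1.01 and 52.6% were longer. At the other OE-high peaks the ratio was 1.30 and 65.1% were longer.

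As deposited, the list of differentiated cells with the knockdown held fewer of the sites. The differentiated knockdown list held 111 sites, against 344 in differentiated cells, and 94 of those 344 (27.3%, interval 22.7 to 32.4) were in both, beside a background of 18%. At the same list size 111 sites lay in differentiated knockdown and 112 in differentiated domains, so that the lower count was not seen at the shared sites. A lower share was seen at the other OE-high peaks, with 6.731% in differentiated knockdown and 8.002% in differentiated domains. The kept share of the shared sites was 50.9% in those lists. As deposited, the kept share was 10.02 points above that of the other OE-high peaks (interval 5.45 to 15.1), and 8.06 with lists of the same size (interval -1.56 to 17.6). The peaks with Rnf20 alone had a kept share of 24.5% as deposited (interval 22.2 to 27.0), which overlaps that of the shared sites. At sites in both lists, the differentiated knockdown domains were short. Over 89 pairs the median length was 6600 bp in the differentiated knockdown and 20800 bp in differentiated cells, with a median ratio of 0.545, and 79 of the 89 were shorter. At the other OE-high peaks the median ratio was 0.455 and 663 of 703 were shorter, so shorter domains were no feature of the shared sites. Another 17 sites were in a differentiated knockdown domain and outside differentiated domains, 5% of 340 against a background of 0.771%, of which 10 lay in 2 groups on chromosomes 6 and 8. Set against knockdown ES cells, the differentiated knockdown kept 81 of 210 sites (38.6%, interval 32.0 to 45.5) beside a background of 31.8%, and held 30 of the 474 others (6.33%) beside a background of 3.04%. The peaks with Rnf20 alone had nearly the same values, 38.6% and 6.37%, so these were not particular to the shared sites.

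**Figure D3:**
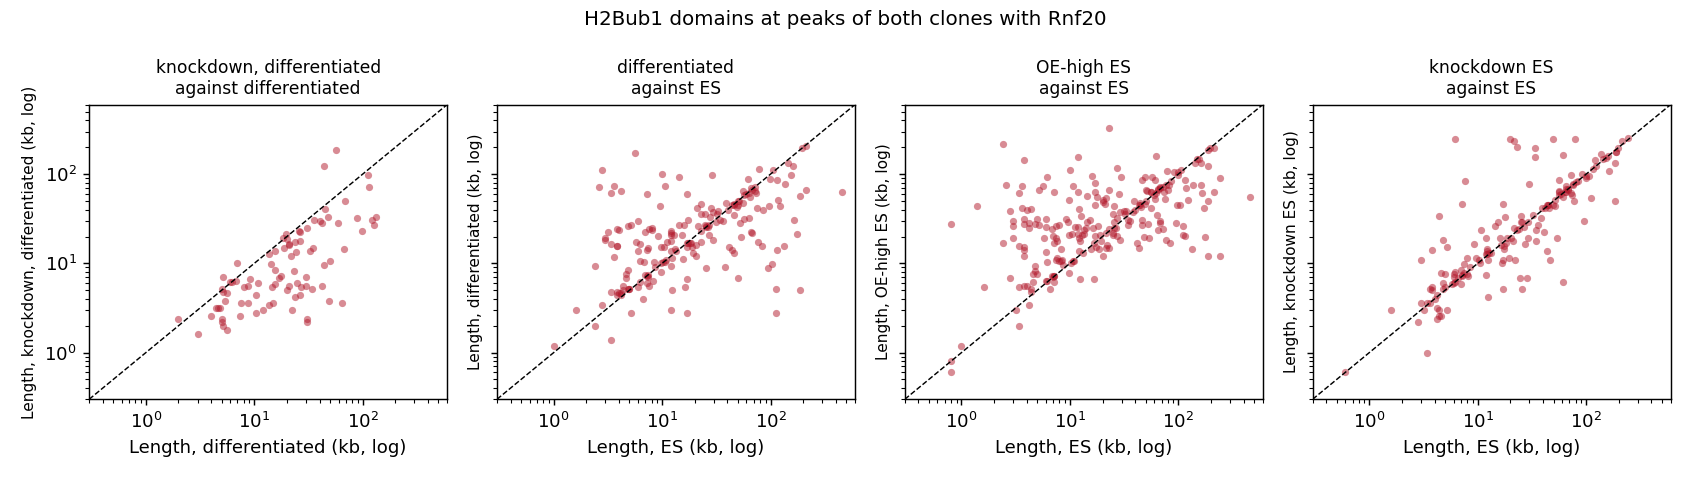
Length of H2Bub1 domains (kb, both axes logarithmic) at shared sites that lie in a domain of both lists compared, 1 point for each pair of domains, with the dashed line at equal length. Points lie mostly below the line in the differentiated knockdown (79 of 89 shorter), spread above it for short ES domains in OE-high cells (141 of 233 longer), and gather along it in knockdown ES cells (median ratio 1.01).

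Over the 5 lists together, the sites ranged from none to all. In none of the lists were 160 sites (23.4%, interval 20.3 to 26.7), against 42.4% of all OE-high peaks. In all 5 were 67 sites (9.80%, interval 7.67 to 12.3), against 4.05%. Of the peaks with Rnf20 alone, 26.03% (interval 24.3 to 27.8) were in none and 7.85% (interval 6.802 to 9.004) in all 5. Both intervals overlap those of the shared sites, so neither share was particular to the shared sites. The sites in all 5 lists had a median Rnf20 score of 122.7 and a median width of 1025 bp, against 89.6 and 684.5 bp for those in none, while their median OE-high scores were 15.2 and 15.6. After the sites in no list, the most frequent combination was the OE-high and differentiated lists, with 118 sites (17.3%, and 17.3% of other OE-high peaks). It was followed by the OE-high list alone (86 sites), the 4 lists other than the differentiated knockdown (72 sites) and all 5 lists. The OE-high list alone held 12.6% of the shared sites and 14.4% of the others. The 2 leading combinations without ES cells were therefore about as frequent here as among other peaks, and those of 4 or 5 lists were more frequent, at 10.5% against 5.61% for the 4 lists named and 9.80% against 3.74% for all 5.

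**Figure D4:**
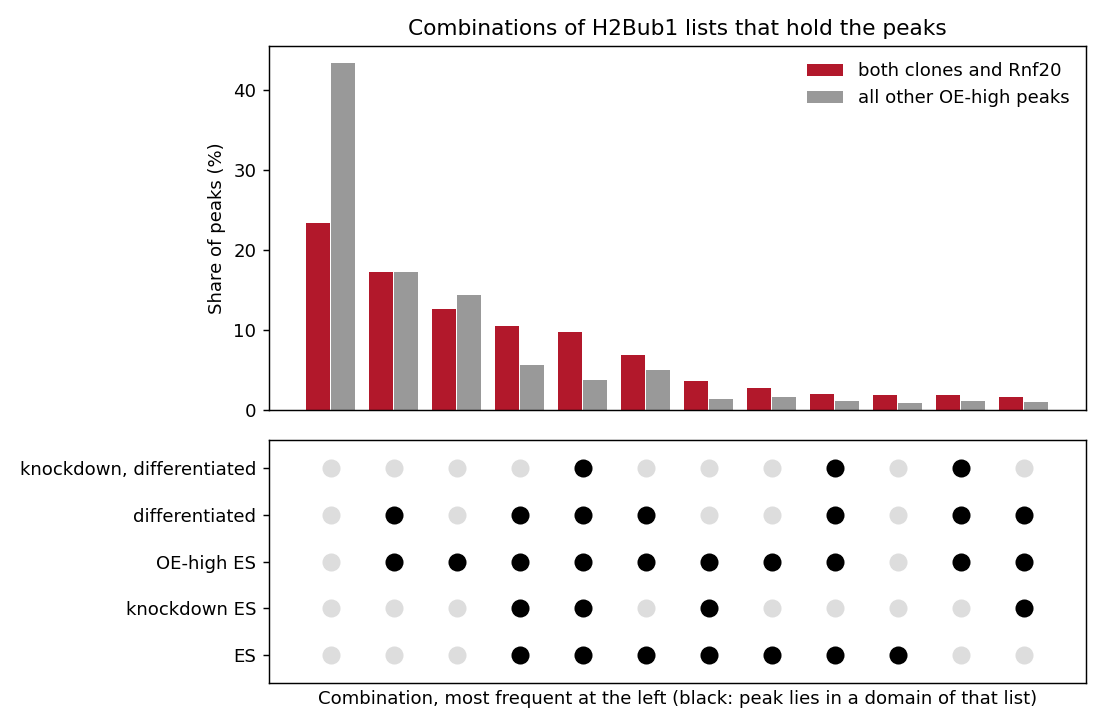
The 12 most frequent combinations of H2Bub1 lists at the shared sites. Bars give the share of the 684 shared sites (red) and of the other 12985 OE-high peaks (grey) with each combination (vertical axis, percent), and black dots below mark the lists whose domains hold the peak. Sites in no list make up 23.4% of the shared sites and 43.4% of the others.

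The sites of highest OE-high score in each state show what these combinations look like on the chromosome. No gene is named, since no mm9 annotation was used here. The leading site in all 5 lists was chr4:155317571-155318320, with scores of 37.4 for OE-high, 13.3 for OE-low and 182 for Rnf20. Its domain measured 7200 bp in differentiated knockdown, 17600 bp in differentiated, 19000 bp in OE-high, 14400 bp in knockdown ES and 12200 bp in ES cells, and 3 of the 5 domains began at the same position, 155317800, within the peak. The site chr12:17551186-17552270 behaved alike, with a domain that began at 17551800 in 4 of the lists and measured 2600, 7400, 7000, 5800 and 7000 bp in the same order. At chr11:86570861-86571926 the domain ended within the peak in 4 of the lists. In OE-high cells it measured 94200 bp and ended past the peak, against 16000 bp in ES cells.

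Among sites in an ES domain and outside knockdown ES domains, chr14:55194280-55195067 had the highest OE-high score of all the shared sites, 47.7. It lay in a domain of 10200 bp in differentiated, 51800 bp in OE-high and 9800 bp in ES cells, and in no domain of either knockdown list. The site chr14:76903749-76908319, 4571 bp wide, lay in domains of 3200 bp in differentiated knockdown, 4400 bp in differentiated, 145600 bp in OE-high and 3800 bp in ES cells. At chr12:92826264-92829545 an ES domain of 1400 bp stood against 43400 bp in OE-high cells, and there was none in the other lists. All of these lay in long OE-high domains, and their Rnf20 scores, 57.4, 61.5 and 108.9, lay on both sides of the median of 100.8 over the shared sites.

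Outside ES domains and in an OE-high domain, the leading sites were chr15:76437670-76438283 (OE-high score 40.6), chr4:11248668-11249585 (37.9) and chr3:96361480-96362528 (34.7). The OE-high domains there were 31200, 54000 and 90600 bp long. The first and the third also led the sites outside ES domains and in a differentiated domain, with 4400 and 4000 bp in differentiated cells, and chr9:44688860-44690579 came next with 67800 bp in differentiated and 65800 bp in OE-high cells. Both domains at this last site ended within the peak. In none of the 5 lists were chr11:90279089-90279796 (OE-high score 40.9, Rnf20 score 97.7), chr4:118743912-118747557 (31.1 and 159) and chr7:80762469-80764144 (31.0 and 204.3). These sites were named for their OE-high scores, and the Rnf20 score of the first lay below the median over the shared sites.

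Most sites stood alone, and a few crowded together. Joining sites whose starts lie within 100 kb gave 479 sites alone, 131 in groups of 2 or 3, and 74 in 14 groups of 4 or more, a grouping chosen after the positions were seen. The grouped sites differed in H2Bub1 from the other 610, with 20.3% in differentiated domains (interval 11.8 to 31.2) against 53.9% (interval 49.9 to 57.9), and 47.3% in OE-high domains (interval 35.6 to 59.3) against 73.4% (interval 69.7 to 76.9). In ES domains they had 51.4% (interval 39.4 to 63.1) against 39.8% (interval 35.9 to 43.8).

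On chromosome 13, 27 sites in 4 groups lay between positions 21807485 and 23854329. Their Rnf20 scores ran from 109.0 to 3100 with a median of 1434, against a median of 100.8 over all shared sites, while their median OE-high score was 13.4. Of the 64 shared sites with an Rnf20 score of 500 or more, 26 were on chromosome 13. In ES cells 14 of the 27 lay in a domain, in 10 domains of 800 to 9400 bp. Knockdown ES cells had 2 of the 27 in a domain, OE-high cells 8, differentiated cells 2 and the differentiated knockdown 0. Of the 14 in an ES domain, 2 were in a knockdown, 4 in an OE-high and 1 in a differentiated domain. A group of 5 sites on chromosome 3, between 96023189 and 96074227, had a median Rnf20 score of 1795, with 1 site in a differentiated and 2 in a knockdown ES domain and 0 in ES or OE-high domains.

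Other groups lay inside long domains. Between 19698274 and 20020626 on chromosome 8, all 9 sites were in domains of the differentiated knockdown, knockdown ES and ES lists, 6 in OE-high and 3 in differentiated domains, and their median OE-high score was low, 5.13. On chromosome 6, 4 sites between 47707597 and 47728684 were in a domain of 41400 bp in the differentiated knockdown, of 41800 bp in knockdown ES and of 41400 bp in ES cells, and in none in OE-high or differentiated cells. On chromosome 4, 4 sites between 146649198 and 146740034 were in a domain of 186600 bp in OE-high, 178400 bp in knockdown ES and 186800 bp in ES cells. On chromosome 17, 4 sites between 15097662 and 15178994 were in a domain of each list, of 95600 to 112400 bp. Whether reads of these groups map to a single place in the genome was not tested.

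**Figure D5:**
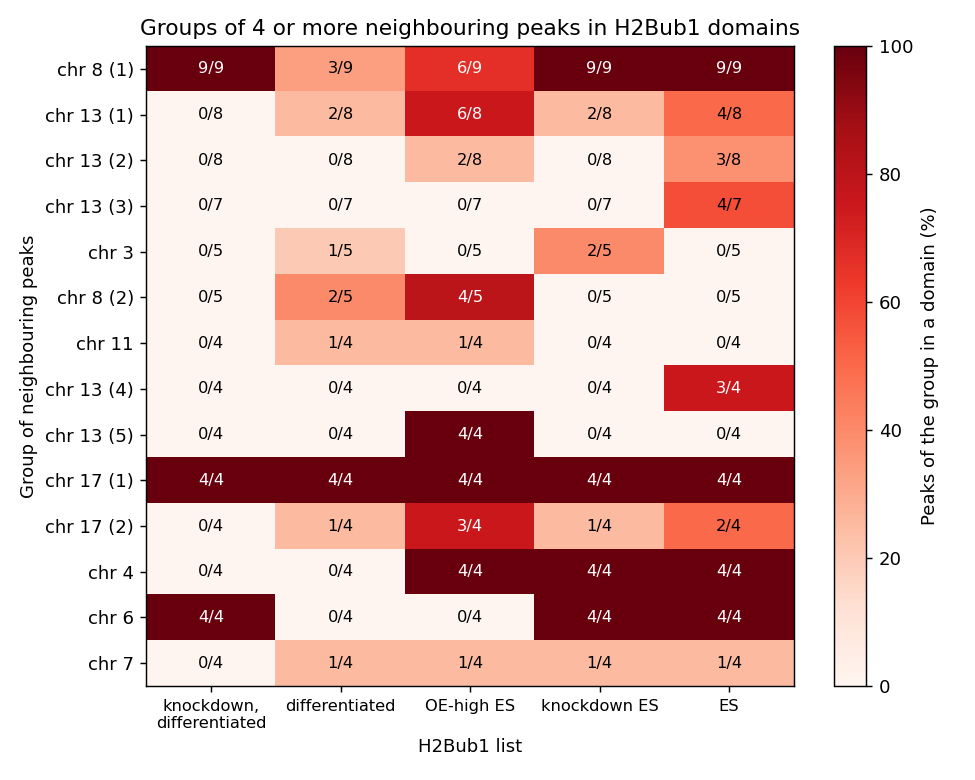
The 14 groups of 4 or more neighbouring shared sites (rows, named by chromosome and numbered within it) and the number of their sites inside a domain of each H2Bub1 list (columns), coloured by share in percent. The groups on chromosomes 4, 6, 8 (1) and 17 (1) lie wholly in knockdown ES and ES domains, while 4 of the chromosome 13 groups have sites in ES domains and few or none in the knockdown and differentiated lists.

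In ES and OE-high domains, shared sites lay near a domain end less often than other OE-high peaks. In domains of 10 kb or more, the OE-high summit was within 1 kb of a domain end for 29.8% of the shared sites in ES cells (interval 23.4 to 36.9), against 39.3% of the other peaks (interval 37.0 to 41.6). Shares were 33.3% (interval 28.7 to 38.03) against 43.5% (interval 42.2 to 44.7) in OE-high cells. The intervals do not overlap in these 2 lists. Over all lengths, domains with a shared site were longer there than those with other OE-high peaks alone. Their medians were 17600 against 10600 bp in ES and 30000 against 26000 bp in OE-high cells. In both differentiated lists they were not longer. A longer domain has a smaller part near its ends, and the part of domain length in these shares was not tested. In differentiated cells, with 45.0% against 52.8%, knockdown ES cells, with 31.4% against 35.9%, and the differentiated knockdown, with 54.9% against 66.7%, the share was also lower at the shared sites, with intervals that overlap. Those of differentiated cells overlap by little, at 38.8 to 51.4 against 51.2 to 54.3. No interval for these differences was computed, so the overlap does not set these lists apart from ES and OE-high cells. Of the shared sites outside the domains of a list, those within 10 kb of a domain were 33 of 572 (5.77%, interval 4.004 to 8.01) in the differentiated knockdown, against 2.60% of the other peaks (interval 2.32 to 2.90). They were 61 of 200 (30.5%, interval 24.2 to 37.4) in OE-high cells, against 22.9% (interval 21.9 to 24.0). In these 2 lists the intervals do not overlap. In differentiated cells, with 19.2% against 15.0%, knockdown ES cells, with 4.65% against 3.88%, and ES cells, with 7.71% against 6.03%, they do.

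The sites were spread over the chromosomes unevenly, as far as the rule selects them. They were 9.78% of the OE-high peaks on chromosome 13 (49 sites) and 8.23% on chromosome 8 (60 sites), against 3.58% on chromosome 1 (47 sites) and 2.65% on chromosome 19 (10 sites). Chromosome X had the highest share, 13.5%, from 7 of 52 peaks, and unplaced contigs had 1 site. The single Rnf20 library gave 478 peaks on chromosome 13, 928 on chromosome 8, 357 on chromosome 1 and 178 on chromosome 19, and the part of these numbers in the uneven selection was not tested. Without chromosome 8, 42.1% of the sites lay in ES domains and 70.5% in OE-high domains.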

How the data were processed

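Per the submitters' processing notes, the tools BWA (0.5.9-r16) and MACS and the build mm9 were named, with no role given. The 5 H2Bub1 lists name the domain caller BCP and a combined set, per the file headers. The deposited score of each list is the authors' value per peak or domain, with a formula not given in the sources used here. A further deposited column of the H2Bub1 lists, in base pairs (other units than a score), is the domain length. The sources name no caller or threshold for the Fbxl19 lists, and Rnf20 peak names begin with MACS. Fbxl19 positions were read as counted from 1 and the others as counted from 0, and are given counted from 1.

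A site was counted in a domain if it overlapped it by at least 1 bp. Lists were compared through the domain that overlaps a site most. The named sites were the 3 of highest OE-high score in each of 5 states, on chromosomes 1 to 19 and X. The sites, classes and alternatives were chosen with earlier results of these data known. Labels of the OE-high Fbxl19 pulldown cite an H2Bub1 list, so that pulldown's list was taken from its own name, and whether the third OE-high H2Bub1 sample entered its list is unknown. No mm9 genome or annotation was used here, so no sequence, gene or CpG island was assigned. Overlap counting was tested on simulated data, where all 2000 intervals gave the planted overlap (30%). Python 3.11.15, NumPy 2.4.6, pandas 2.3.3, SciPy 1.17.1 and matplotlib 3.10.9 were used.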

Additional observations from a re-analysis of the deposited data

How the results depend on the processing

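The 5 shares in domains and 4 shares between lists were recomputed under 12 alternatives, 4 of them chosen after seeing the data (without chromosome 1, without groups of 4 or more sites, the top 25% of OE-high peaks by score, and 1 site per domain). Of 108 values, 93 stayed within the 95% interval of the reported value. Many alternatives keep most or all of the 684 sites, such as 676 on autosomes, so that count is no independent check. The differentiated knockdown list sets the common size of 1090 domains, so its share could not change with lists of the same size. With H2Bub1 lists of the same size the shares were 16.4% in differentiated, 17.5% in OE-high, 22.1% in knockdown ES and 23.2% in ES domains. Of the 525 sites outside ES domains in those lists, 11.4% were in a differentiated and 11.2% in an OE-high domain. Of the sites in a differentiated domain 50.9% were in a differentiated knockdown domain. Asking that 50% of the OE-high peak be covered (276 sites) gave 64.1% in OE-high and 41.7% in differentiated domains, and 49.7% and 28.6% for the sites outside ES domains. Within 1 kb (821 sites) the OE-high share was 66.99%. With the top 50% of OE-low and Rnf20 peaks the share kept in knockdown ES cells was 60.2%. With OE-low peaks as the query the differentiated share was 44.6%, and 31.0% outside ES domains. The cause was not tested, except that lists of the same size hold fewer domains. Depth is unknown and the Rnf20 list comes from 1 library. Sites that share a domain are not independent, and intervals are too narrow to that extent. No paired analysis was possible because the lists are combined over replicates.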
